A study of Mus musculus with 14 samples.

Results

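A small family of genes encodes the receptors by which islet cells sense lipids at their surface, and their transcripts were followed in pancreatic islets of obese mice lacking Toll-like receptors. The set holds Ffar1, Ffar2, Ffar3, Ffar4 and Gpr119, 5 of the 18820 genes that had a probe set annotated with a single gene symbol, and each of the 5 had exactly 1 such probe set. Islets came from 4 groups of mice: Tlr2/Tlr4 double knockout (DKO) mice after 5 weeks of a high-fat diet (n = 2), wild-type (WT) C57BL/6 mice after 5 weeks (n = 4), DKO mice after 7 months (n = 4) and WT mice after 7 months (n = 4). All groups ate a diet of 60% fat from 6 weeks of age, so no group stands for lean animals, and at 7 months the mice were older as well as longer on the diet, which cannot be told apart. The DKO mice carried both deletions in the whole body on a C57BL/6 background, so an effect of 1 deletion, or of loss in islet cells alone, cannot be told apart from the rest.

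Free fatty acids reach islet cells from the blood and from fat stored within the islet, and they act both as fuel and as signals. Ffar1, also called GPR40, and Ffar4, also called GPR120, bind medium- and long-chain fatty acids, Ffar2 (GPR43) and Ffar3 (GPR41) bind the short-chain acids acetate, propionate and butyrate that gut bacteria make, and Gpr119 binds lipid amides and monoacylglycerols such as oleoylethanolamide. Ffar1 couples through Gq to phospholipase C and amplifies glucose-stimulated insulin secretion in beta cells, Gpr119 couples through Gs to cAMP, Ffar3 through Gi, and Ffar2 through both Gi and Gq. In mouse islets Ffar4 is best known from delta cells, where its activation restrains somatostatin release.

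Values are log2 signals, so a difference of 1 is a doubling. Array medians lay between 3.89 and 3.98. Tlr2 differed between DKO and WT islets by -1.66 ± 0.12 (SE) at 5 weeks and by -1.06 ± 0.10 at 7 months (limma, adjusted p = 9.71e-06 and 1.61e-05), whereas Tlr4 did not pass the test at either time, with differences of 0.35 ± 0.20 and 0.31 ± 0.16; the Tlr4 probe set averaged 3.07, below its array's median on all 14 arrays and below the 99th percentile of 3.45 of 1006 olfactory receptor probe sets, a mark of background in islets, and where its probes lie relative to the deletion is not given, so Tlr4 does not check the labels. The islet label held for its markers, with Sst at 11.58 or more on every array. Marker levels of other cells varied: the mean of 16 acinar genes, relative to all arrays, ran from -0.01 to 0.40 in DKO islets at 7 months and from -2.33 to 0.78 in WT islets at 7 months. At 5 weeks the acinar mean was 1.28 and 0.86 in DKO islets, above all other arrays, and ran from -1.53 to 0.61 in WT islets. The B and plasma cell list stood at 1.52 in DKO replicate 4 at 7 months, where the T and NK cell list was raised too. Of 8 stellate and fibroblast genes 5 were higher in DKO islets at 7 months (Col1a1, Col1a2, Col3a1, Dcn and Pdgfra), against 2.44% of all genes. The list had a median difference of 0.90, and its mean ran from 0.32 to 0.92 in DKO islets and from -0.50 to -0.20 in WT islets. This list thus differed between genotypes at 7 months, as Ffar2 and Ffar4 did, and its part in those results was not tested. Over time in WT islets its median difference was -0.37. In whole islets, fewer cells of a type and less RNA per cell cannot be told apart.

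Among the receptors, Ffar2 was higher and Ffar4 lower in DKO than in WT islets after 7 months of the diet, and neither differed detectably after 5 weeks. At 7 months 2 of the 5 receptors passed the test (Benjamini-Hochberg adjusted p under 0.05 over all genes), against 4.71% of all genes: 1 of 5 was higher in DKO islets, against 2.44% of all genes, and 1 of 5 was lower, against 2.27%. Both calls held under every one of the 25 alternative settings tried. At 5 weeks 0 of 5 passed with limma, against 0.994% of all genes, and 1 of 5 had an unadjusted p under 0.05. From 5 weeks to 7 months, 3 of 5 changed in DKO islets (Ffar2, Ffar4 and Gpr119) and 1 of 5 in WT islets (Ffar4), against 7.57% and 2.37% of all genes. In DKO islets 1 of these was higher at 7 months, against 4.86% of all genes, and 2 were lower, against 2.70%; in WT islets 0 were higher, against 1.35%, and 1 was lower, against 1.01%. The genotype comparison at 7 months and the time comparison in DKO islets share the late DKO arrays, so they are not independent. The median difference of the 5 receptors at 7 months was 0.01, the same as the 0.01 of all genes tested.

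**Figure D1:**
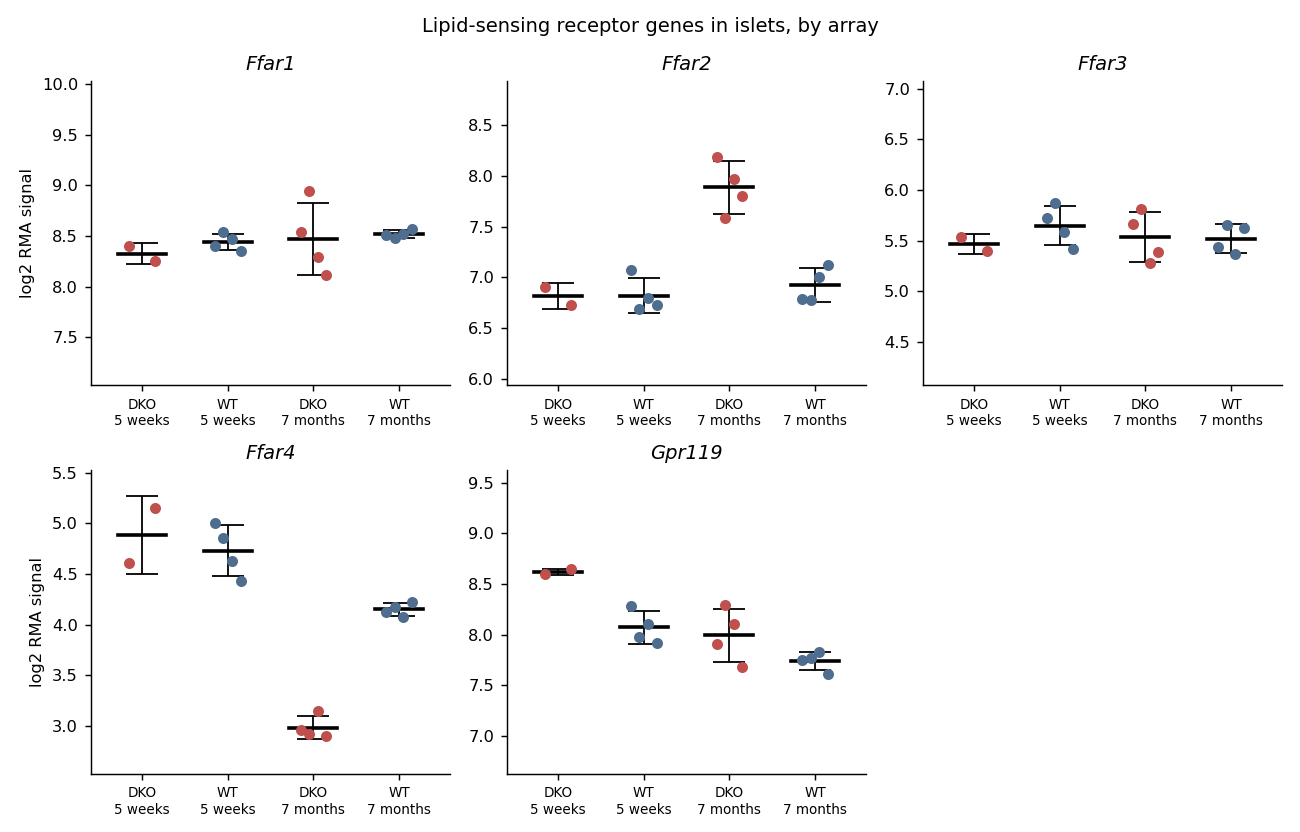
Log2 signal of the 5 receptor genes on each of the 14 arrays, with DKO in red left of WT in blue at each diet time; bars give the group mean and SD, and every panel spans 3 log2 units. The 4 DKO arrays at 7 months lie above all other arrays for Ffar2 and below all other arrays for Ffar4, while the groups of Ffar1 and Ffar3 overlap.

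**Figure D2:**
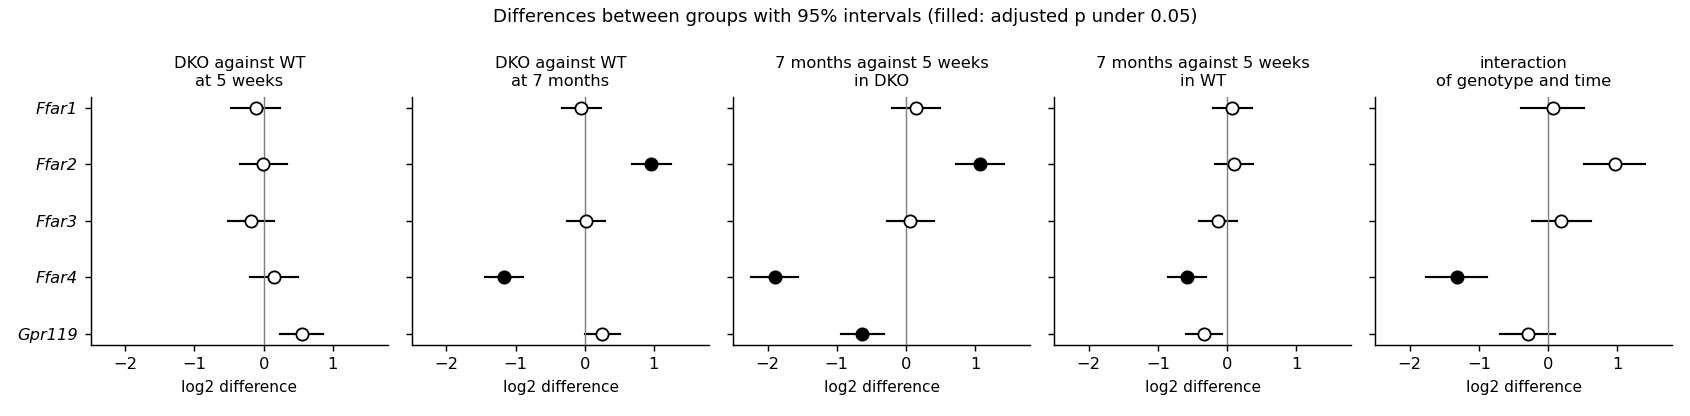
Log2 difference (x axis) of each receptor in each of the 5 comparisons, with its 95% confidence interval; filled circles passed the test at an adjusted p under 0.05. Genotype differences are DKO minus WT, time differences 7 months minus 5 weeks, and the interaction is the genotype difference at 7 months minus that at 5 weeks.

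The short-chain fatty acid receptor Ffar2 had log2 signals of 8.19, 7.58, 7.97 and 7.80 in DKO islets at 7 months, against 6.79, 6.78, 7.00 and 7.12 in WT islets at 7 months. At 5 weeks it had 6.91 and 6.72 in DKO islets, against 7.07, 6.68, 6.80 and 6.72 in WT islets. Thus the 4 late DKO arrays were all above the other 10, and the remaining groups overlapped. Groups did not overlap at 7 months for 2 of the 5 receptors, Ffar2 and Ffar4, as for 10.6% of all genes.

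Ffar2 averaged 7.89 ± 0.26 in DKO islets and 6.92 ± 0.17 in WT islets at 7 months (SD, n = 4 each), a rise of 0.96 ± 0.13 (SE), or 1.95-fold (adjusted p = 0.000591). The two-sided exact permutation test gave p = 0.0286, the smallest that 4 against 4 arrays allow. Over time Ffar2 rose by 1.07 ± 0.16 in DKO islets (2.10-fold, adjusted p = 0.00107), whereas in WT islets the difference was 0.10 with a 95% interval from -0.17 to 0.38. At 5 weeks the genotype difference was -0.0028, with an interval from -0.34 to 0.34, so a change of the size seen at 7 months lies outside it. The test of the difference between these genotype effects gave 0.97 ± 0.21 and did not pass (limma, adjusted p = 0.0962). It did pass with a trended robust prior (0.0435) and without DKO replicate 2 at 7 months (0.0200). Among the alternatives that left out no single array its adjusted p reached 0.235. Arrays carry a number 5 or 7 in their labels whose meaning is not given; within number 5 the difference at 7 months was 1.19 and within number 7 it was 0.74.

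Ffar2 is also a receptor of neutrophils and macrophages, so their markers stand beside it. Of the 10 macrophage genes 4 were higher in DKO islets at 7 months (Lyz2, Fcgr1, Mrc1 and Itgam), against 2.44% of all genes. Lyz2, which encodes lysozyme, was higher by 0.96 ± 0.21, whereas the defining marker Adgre1 differed by 0.10 ± 0.14. The list's mean ran from 0.08 to 0.57 in DKO islets and from -0.15 to -0.04 in WT islets at 7 months, so the groups did not overlap, as for Ffar2. This is not particular to macrophages. The endothelial mean ran from 0.18 to 0.38 in DKO islets and from 0.02 to 0.14 in WT islets. The stellate, alpha, delta and PP lists did not overlap either. Itgam lay below the olfactory mark of 3.45 in both groups and Mrc1 in WT islets. Of the 5 measured neutrophil genes 0 passed with limma and 1 had an unadjusted p under 0.05. The part of these cells in the Ffar2 result was not tested. Without DKO replicate 4, the array with raised lymphocyte markers, the Ffar2 difference was 0.99 ± 0.14 (adjusted p = 0.00153).

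Ffar3, the other short-chain fatty acid receptor, showed no such pattern. Its log2 signals were 5.67, 5.82, 5.28 and 5.39 in DKO islets at 7 months, against 5.44, 5.66, 5.37 and 5.62 in WT islets, and at 5 weeks 5.54 and 5.40 in DKO islets, against 5.72, 5.87, 5.58 and 5.42 in WT islets. All 4 groups overlapped with their neighbour in order of level. The difference at 7 months was 0.01 with a 95% interval from -0.26 to 0.29, and at 5 weeks it was -0.18 with an interval from -0.51 to 0.15. Ffar3 passed in 0 of the 5 comparisons, and its largest difference over time was -0.13 ± 0.13, in WT islets. Whether Ffar2 and Ffar3 differ in their response was not tested.

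Ffar2, Ffar3 and Ffar1 lie side by side on chromosome 7, in that order and on the same strand. The stretch upstream of the transcription start is shown for Ffar2, which rose, and for its neighbour Ffar3, which did not pass, each 250 bases before to 50 bases after the start in RefSeq (GRCm38.p6, minus strand, printed 5′ to 3′). For Ffar2 the outermost of 4 annotated starts was taken, at chr7:30823726-30824025, and for Ffar3 its only one, at chr7:30856129-30856428. Capitals mark matches to 8 motifs searched on both strands. In Ffar2 these are a Maf recognition motif (TGCTGAC, here as its reverse complement GTCAGCA from -225), which 4.67% of 32851 promoters hold, and a nuclear receptor motif (AGGTCA, here as TGACCT from -175), held by 16.3%. In Ffar3 it is a cAMP response element, TGACGTCA from -68, held by 1.79%. The other motifs, the homeodomain motif TAATTA (in 5.29% of promoters), the forkhead motif TGTTTAC (3.65%), the TATA box TATAAA (13.6%), an NF-kappaB motif (0.155%) and an interferon response motif (3.44%), matched neither window. The other starts of Ffar2 held the nuclear receptor motif or none. The Maf motif is not particular to Ffar2 in this cluster: the Ffar1 window holds it as TGCTGAC from -188, and Ffar1 did not pass either.
Ffar2: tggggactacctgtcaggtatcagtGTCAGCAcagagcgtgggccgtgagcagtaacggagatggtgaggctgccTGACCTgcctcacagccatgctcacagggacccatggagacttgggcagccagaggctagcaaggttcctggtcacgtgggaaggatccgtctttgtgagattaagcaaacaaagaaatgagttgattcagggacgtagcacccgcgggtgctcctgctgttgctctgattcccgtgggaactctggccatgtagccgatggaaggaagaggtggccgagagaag
Ffar3: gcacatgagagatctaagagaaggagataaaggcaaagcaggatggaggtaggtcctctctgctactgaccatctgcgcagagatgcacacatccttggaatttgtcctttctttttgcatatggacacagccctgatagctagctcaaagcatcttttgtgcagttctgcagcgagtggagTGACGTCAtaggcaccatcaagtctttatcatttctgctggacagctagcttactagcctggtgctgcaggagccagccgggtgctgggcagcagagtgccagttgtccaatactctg
A match is a run of letters only, and binding was not measured in these samples.

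The genes flanking the cluster did not move with Ffar2. Of its 4 neighbours on one side (Gapdhs, Sbsn, Dmkn and Krtdap) and 4 on the other (Cd22, Mag, Hamp2 and Hamp), 0 passed at 7 months with limma and 0 had an unadjusted p under 0.05, with differences from -0.32 for Hamp2 to 0.24 for Cd22. Of the 3 receptor genes, only Ffar2 passed. Next to Ffar4 on chromosome 19 the picture was different, since its immediate downstream neighbour Rbp4, which lies on the opposite strand, fell by 1.91 ± 0.14 (adjusted p = 2.53e-06), and Lgi1, the fourth gene on that side, fell by 0.96 ± 0.22 (adjusted p = 0.021). The other 6 neighbours (Cyp26c1, Cyp26a1, Myof, Cep55, Pde6c and Fra10ac1) did not pass, with differences from -0.16 to 0.59. Among them Myof (95% interval from 0.16 to 1.01) and Cyp26c1 (0.04 to 0.56) differed in the direction opposite to Ffar4.

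**Figure D3:**
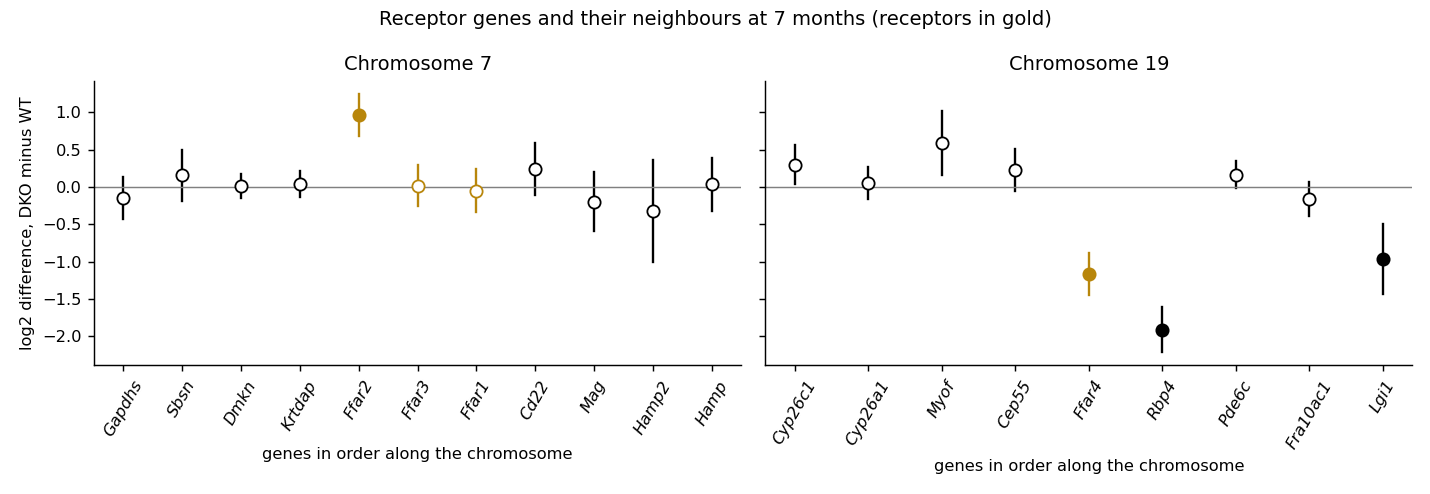
Log2 difference between DKO and WT islets at 7 months (y axis, DKO minus WT, with 95% intervals) for the receptor genes in gold and their measured neighbours in black, in order along chromosomes 7 and 19; spacing is by rank, not distance, and filled circles passed the test. Ffar2 stands alone in its cluster, whereas Ffar4 sits beside Rbp4, at -1.91.

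Ffar4, the receptor for long-chain fatty acids including omega-3 acids, had log2 signals of 2.96, 2.92, 3.15 and 2.90 in DKO islets at 7 months, against 4.12, 4.18, 4.07 and 4.23 in WT islets at 7 months. At 5 weeks it had 4.61 and 5.15 in DKO islets, against 5.00, 4.86, 4.62 and 4.43 in WT islets. The late DKO arrays were all below the late WT arrays, and these in turn were all below the early arrays of both genotypes, which overlapped.

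At 7 months Ffar4 averaged 2.98 ± 0.11 in DKO islets and 4.15 ± 0.07 in WT islets (SD, n = 4 each). It thus fell by 1.17 ± 0.13, or 2.25-fold (adjusted p = 0.000107; two-sided exact permutation p = 0.0286, the smallest possible). Within number 5 the difference was -1.04 and within number 7 it was -1.29. The late DKO signal was below the median of each array, above that of 96.8% of 1006 probe sets for olfactory receptors, genes mostly silent outside the nose, but below their 99th percentile of 3.45. The late WT mean exceeded 99.4% of them. The DKO signal therefore lies close to background and the exact size of the fall is uncertain.

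With time on the diet Ffar4 fell in both genotypes. The difference, 7 months minus 5 weeks, was -1.90 ± 0.16 in DKO islets (3.73-fold, adjusted p = 1.21e-05) and -0.58 ± 0.13 in WT islets (1.49-fold, adjusted p = 0.0305), and the groups did not overlap in either, as for 26.7% of genes in DKO islets and 11.6% in WT islets. The WT fall had an exact permutation p of 0.0286, but its adjusted p lost the threshold with all probe sets tested (0.0545), with a replicate block (0.0588) and on leaving out single WT arrays (WT replicate 1, 2 or 3 at 5 weeks, or any of the 4 at 7 months; adjusted p from 0.0524 to 0.100). At 5 weeks the genotype difference was 0.15 with an interval from -0.19 to 0.49. The genotype difference at 7 months exceeded that at 5 weeks by -1.32 ± 0.21 (adjusted p = 0.0197), making Ffar4 1 of 5 receptors that passed this test, against 0.0903% of all genes (0 of 5 in the higher direction, against 0.0266%, and 1 of 5 in the lower, against 0.0638%). That call was lost with all probe sets tested (0.0766), a replicate block (0.0834), and without WT replicate 3 or DKO replicate 2 at 5 weeks or WT replicate 2 or 4 at 7 months (0.0526 to 0.0624).

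The region around the start of Ffar4 is given because this receptor changed in most comparisons; in RefSeq (GRCm38.p6) it is chr19:38096829-38097128 on the plus strand. None of the 8 motifs matched in this window, so it carries no capitals.
Ffar4: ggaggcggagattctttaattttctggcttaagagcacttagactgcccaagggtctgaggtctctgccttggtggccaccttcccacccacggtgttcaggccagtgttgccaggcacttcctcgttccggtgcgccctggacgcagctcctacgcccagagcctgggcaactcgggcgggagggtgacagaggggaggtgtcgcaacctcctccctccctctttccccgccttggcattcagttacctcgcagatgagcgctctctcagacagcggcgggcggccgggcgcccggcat

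Beside Ffar4 stand the markers of delta cells. Of the 5 genes on the delta cell list 2 fell in DKO islets at 7 months, against 2.27% of all genes. These were Sst, the somatostatin gene, at a difference of -0.88 ± 0.08 (adjusted p = 2.35e-05), and Rbp4, which encodes retinol-binding protein and marks delta cells in mice, at -1.91 ± 0.14. Sst averaged 11.74 ± 0.15 in DKO islets and 12.62 ± 0.09 in WT islets, and Rbp4 averaged 6.46 ± 0.23 in DKO islets and 8.37 ± 0.28 in WT islets (SD, n = 4 each). The delta cell transcription factor Hhex (-0.21 ± 0.16), the ghrelin receptor Ghsr (-0.43 ± 0.15) and the leptin receptor Lepr (0.56 ± 0.17) did not pass, although the 4 late DKO arrays of Ghsr, from 3.87 to 4.18, were below all the others. The list's mean, relative to all arrays, ran from -0.61 to -0.48 in DKO islets and from -0.05 to 0.09 in WT islets at 7 months, and from 0.29 to 0.33 in DKO islets and 0.35 to 0.41 in WT islets at 5 weeks.

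Markers of other endocrine cells also moved with Ffar4. Of the 4 measured alpha cell genes 3 fell in DKO islets at 7 months, against 2.27% of all genes. Among them were the glucagon gene Gcg at -0.69 ± 0.09 and the transcription factor Irx2 at -1.22 ± 0.13. All 3 genes of the PP and epsilon list fell (Ppy, Pyy and Ghrl), with Ppy at -0.82 ± 0.17. The insulin gene Ins2, on the beta cell list, differed by 0.02 ± 0.07. It had 11.91 on each late DKO array and from 11.87 to 11.94 on the late WT arrays. Whether its probe set could still register a change at this level was not tested, so this difference is not read as a lack of change. Of the 10 beta cell genes 0 passed with limma and 3 had an unadjusted p under 0.05. Up to 3 of the 10 passed under alternatives. The mean of this list at 7 months ran from -0.16 to 0.08 in DKO islets and from 0.04 to 0.10 in WT islets. Only DKO replicate 2 lay within the WT range, and the other DKO arrays were below it. The part that cell numbers play in the Ffar4 result was not tested. With the acinar score as a covariate the Ffar4 difference was -1.10 ± 0.14 (limma, adjusted p = 0.000828). That score holds acinar genes only and does not measure delta, alpha or PP cells.

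**Figure D4:**
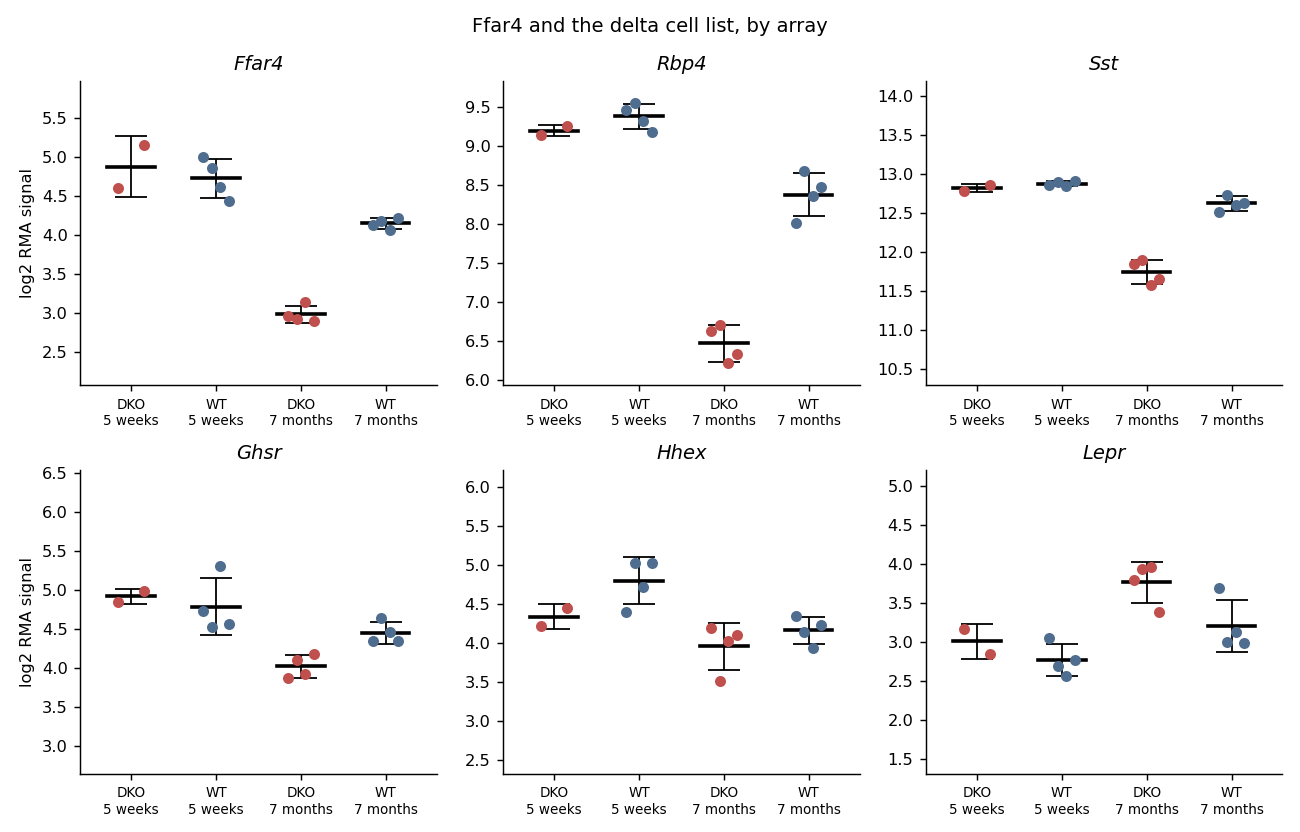
Log2 signal of Ffar4 and of the 5 delta cell list genes on each array, DKO in red left of WT in blue at each diet time; bars give mean and SD, and each panel spans 3.9 log2 units. Ffar4, Rbp4, Sst and Ghsr are lowest in the 4 DKO arrays at 7 months, whereas the late DKO and WT arrays overlap for Hhex and Lepr.

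Ffar1, the long-chain fatty acid receptor through which fatty acids enhance insulin secretion, passed in 0 of the 5 comparisons with limma, none of them at an unadjusted p under 0.05. It had 8.54, 8.94, 8.29 and 8.12 in DKO islets at 7 months, against 8.51, 8.48, 8.52 and 8.57 in WT islets. At 5 weeks it had 8.40 and 8.26 in DKO islets, against 8.40, 8.54, 8.47 and 8.35 in WT islets. The late DKO arrays spread on both sides of the WT arrays, with an SD of 0.36 against 0.04 in WT islets. The difference at 7 months was -0.05 with a 95% interval from -0.34 to 0.24. Over time it was 0.15 in DKO islets, with an interval from -0.20 to 0.50, and 0.08 in WT islets, with an interval from -0.21 to 0.37. DKO replicate 2, which was highest for Ffar1, also had the highest mean of the 10 beta cell genes among the late DKO arrays, 0.08 against -0.16 to -0.15 in the other three.

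Gpr119, the Gs-coupled receptor for oleoylethanolamide and related lipids, was highest in early DKO islets. It had 8.60 and 8.64 in DKO islets at 5 weeks, against 8.28, 7.98, 8.11 and 7.92 in WT islets. At 7 months it had 7.91, 8.29, 8.10 and 7.68 in DKO islets, against 7.75, 7.77, 7.83 and 7.61 in WT islets. The early DKO arrays were above all the others, and the late groups overlapped. These early DKO arrays also had the highest acinar means, 1.28 and 0.86 relative to all arrays.

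At 5 weeks Gpr119 averaged 8.62 ± 0.03 in DKO islets (SD, n = 2) and 8.07 ± 0.16 in WT islets (SD, n = 4). The difference of 0.55 ± 0.15 did not pass (adjusted p = 0.100; exact permutation p = 0.0667, the smallest that 2 against 4 arrays allow), and non-overlapping groups at 5 weeks were found for 21.6% of all genes. It did pass with a trended robust prior (0.0443) and without DKO replicate 4 at 7 months (0.0490). Its limma adjusted p reached 0.249 among the alternatives that left out no single array. With time Gpr119 fell in DKO islets by 0.63 ± 0.15 (1.54-fold, adjusted p = 0.0176), with -0.60 within number 5 and -0.66 within number 7. This call rested on both early DKO arrays: without replicate 1 the adjusted p was 0.120, without replicate 2 it was 0.0861, and with only the arrays compared in the fit it was 0.122. In WT islets the time difference of -0.33 ± 0.12 did not pass (adjusted p = 0.194), and the exact permutation p was 0.0286. The early and late groups did not overlap in WT islets, as for 11.6% of all genes, nor in DKO islets, as for 26.7%. At 7 months the genotype difference was 0.25 with an interval from -0.00049 to 0.51, and the interaction of -0.30 ± 0.19 did not pass (adjusted p = 0.652). Over time in DKO islets, 1 of the 6 measured neighbours of Gpr119 on the X chromosome passed, Aifm1, which differed in the opposite direction by 0.39 ± 0.11 (adjusted p = 0.0481). None of the 6 passed between genotypes at either time with limma, and 1 (Rbmx2, at 5 weeks) had an unadjusted p under 0.05. Rbmx2, the gene next to Gpr119, differed in the same direction as Gpr119 in both comparisons without passing. At 5 weeks its genotype difference was 0.32, with an interval from 0.03 to 0.61. Over time in DKO islets it was -0.35, with an interval from -0.64 to -0.06.

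Beyond the receptors themselves, 8 lists of genes that carry, end or feed their signals were counted at 7 months. In the Gq and phospholipase C arm used by Ffar1, Ffar2 and Ffar4, 1 of 20 measured genes rose and 4 fell, against 2.44% and 2.27% of all genes. Gna14, a Gq-family alpha subunit, rose by 0.84 ± 0.15 (adjusted p = 0.00432), whereas Itpr3, a calcium release channel opened by inositol trisphosphate, fell by 0.62 ± 0.11 (adjusted p = 0.00467). The protein kinase C genes Prkcb, Prkce and Prkca were the other 3 that fell, by 0.64 ± 0.15 for Prkcb and 0.37 ± 0.08 for Prkce, and these lost the threshold under some alternatives. The WT mean of Gna14, 3.31, lay below the olfactory 99th percentile of 3.45, so its fold is uncertain. At 5 weeks Itpr3 already differed by -0.58 ± 0.13, which did not pass (limma, adjusted p = 0.0539). The 1 of 20 that passed then, against 0.994% of all genes, was Plcb1, higher in DKO islets by 0.48 ± 0.10 (adjusted p = 0.0436). That call was lost under some alternatives, and 5 of 20 had an unadjusted p under 0.05 at 5 weeks.

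In the Gi and Go arm, which Ffar2 and Ffar3 use, 1 of 9 genes passed at 7 months, against 4.71% of all genes. Gnai1, an inhibitory G protein alpha subunit, had 5.22, 5.39, 5.31 and 5.36 in DKO islets, against 6.21, 6.44, 6.32 and 6.13 in WT islets. It fell by 0.95 ± 0.08 (adjusted p = 1.10e-05) in every DKO array below every WT array, and fell over time by 1.07 ± 0.10 in DKO islets and by 0.42 ± 0.08 in WT islets. The WT call was lost with the acinar score as a covariate and without WT replicate 2 or 3 at 5 weeks or WT replicate 1 or 4 at 7 months (highest adjusted p = 0.0648). Its relative Gnai3 differed by 0.23 ± 0.08 and did not pass. In the Gs and cAMP arm used by Gpr119, 0 of 28 rose and 2 fell at 7 months, against 2.44% and 2.27% of all genes. These 2 were the phosphodiesterases Pde1c, by 0.92 ± 0.19, and Pde7b, by 0.37 ± 0.09, which break down cyclic nucleotides. At 5 weeks 1 of 28 passed, against 0.994% of all genes, again Pde7b, which was lower in DKO islets by 0.65 ± 0.11. The Pde7b call at 7 months held in 15 of 25 alternatives and the Pde1c call in 24, and the Pde7b call at 5 weeks was lost without either DKO array of that time.

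Of 21 arrestins, receptor kinases and RGS proteins, which end G protein signalling, 2 rose at 7 months and 0 fell, against 2.44% and 2.27% of all genes. These 2 were Rgs1, by 0.98 ± 0.16, and Rgs4, by 0.93 ± 0.16, in every alternative that tested them. The WT mean of Rgs1, 3.44, lay at the olfactory mark, so its fold is uncertain. Neither of these calls was made at 5 weeks, when 0 of 21 passed with limma and 6 had an unadjusted p under 0.05. Rgs4 was among these 6 and differed in the same direction, by 0.58 ± 0.20 (adjusted p = 0.223). In the interaction of genotype and time 0 of 21 passed.

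Genes that release the lipid ligands were counted next. Of 19 genes of lipolysis and ligand supply 1 rose and 3 fell at 7 months, against 2.44% and 2.27% of all genes. Lpl, the lipase that frees fatty acids from circulating triglycerides, had 5.54, 6.48, 4.90 and 5.63 in DKO islets, against 7.05, 7.53, 7.13 and 6.97 in WT islets, a fall of 1.53 ± 0.24 (adjusted p = 0.00189). Pla2g4a, a phospholipase that releases arachidonic acid, differed by 0.60 ± 0.13 and passed, but its means of 2.97 in DKO islets and 2.37 in WT islets were both below the olfactory mark of 3.45, and the call was lost without WT replicate 1 or 2 or DKO replicate 4 at 7 months (highest adjusted p = 0.0636). The hormone-sensitive lipase gene Lipe (-0.31 ± 0.08) and Abhd4, an enzyme on the path to oleoylethanolamide (-0.41 ± 0.11), passed in 5 and 11 of 25 alternatives. Abhd4 was also lower in DKO islets at 5 weeks, by 0.80 ± 0.13 (adjusted p = 0.0113), the only gene of this list that passed then. It lost that call without DKO replicate 1 at 5 weeks.

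Of 20 genes of fatty acid uptake and activation, 0 rose and 1 fell at 7 months, against 2.44% and 2.27% of all genes. The 1 that fell was the very-long-chain acyl-CoA synthetase Slc27a2, by 0.53 ± 0.14, with an adjusted p of 0.0489 that held in 11 of 24 alternatives. Both of its group means, 2.81 in DKO islets and 3.35 in WT islets, lay below the olfactory mark. Cd36, the fatty acid translocase, rose over time in DKO islets by 2.70 ± 0.36 (adjusted p = 0.000537), with 6.73, 5.40, 7.21 and 6.74 at 7 months, against 3.49 and 4.15 at 5 weeks. In WT islets its time difference was 0.73 ± 0.30 and did not pass. The fatty acid binding protein gene Fabp4 rose over time in both, by 1.32 ± 0.20 in DKO islets and 1.05 ± 0.17 in WT islets. Cd36 and Fabp4 are also genes of endothelial cells and macrophages. Of all genes 4.86% were higher at 7 months than at 5 weeks in DKO islets and 1.35% in WT islets. Of the 8 endothelial genes 4 were higher in DKO islets and 2 in WT islets. Of the 10 macrophage genes 4 were higher in DKO islets and 0 in WT islets (limma, 1 at an unadjusted p under 0.05). The part of these cells was not tested.

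Related receptors were counted last. Of 32 other receptors for lipids and metabolites, 0 rose and 1 fell at 7 months, against 2.44% and 2.27% of all genes. Their median difference was 0.07, against 0.01 for all genes. The gene that fell was Sucnr1, the succinate receptor, at 2.23 ± 0.13 in DKO islets and 3.29 ± 0.14 in WT islets, with an adjusted p of 0.000222. Both means lay below the olfactory mark of 3.45, so neither is clearly above background and no size is given for the difference. Of 30 hormone and transmitter receptors of islets 2 rose and 2 fell, against 2.44% and 2.27% of all genes. The galanin receptor Galr1 rose by 0.76 ± 0.08 (adjusted p = 3.30e-05) and the VIP receptor Vipr2 by 0.72 ± 0.14, whereas Vipr1 fell by 0.39 ± 0.08 and the CRH receptor Crhr1 by 0.73 ± 0.17, the last in 17 of 25 alternatives. The incretin receptor Glp1r differed by -0.04 ± 0.08 and the GIP receptor Gipr by -0.42 ± 0.15, and neither passed.

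**Figure D5:**
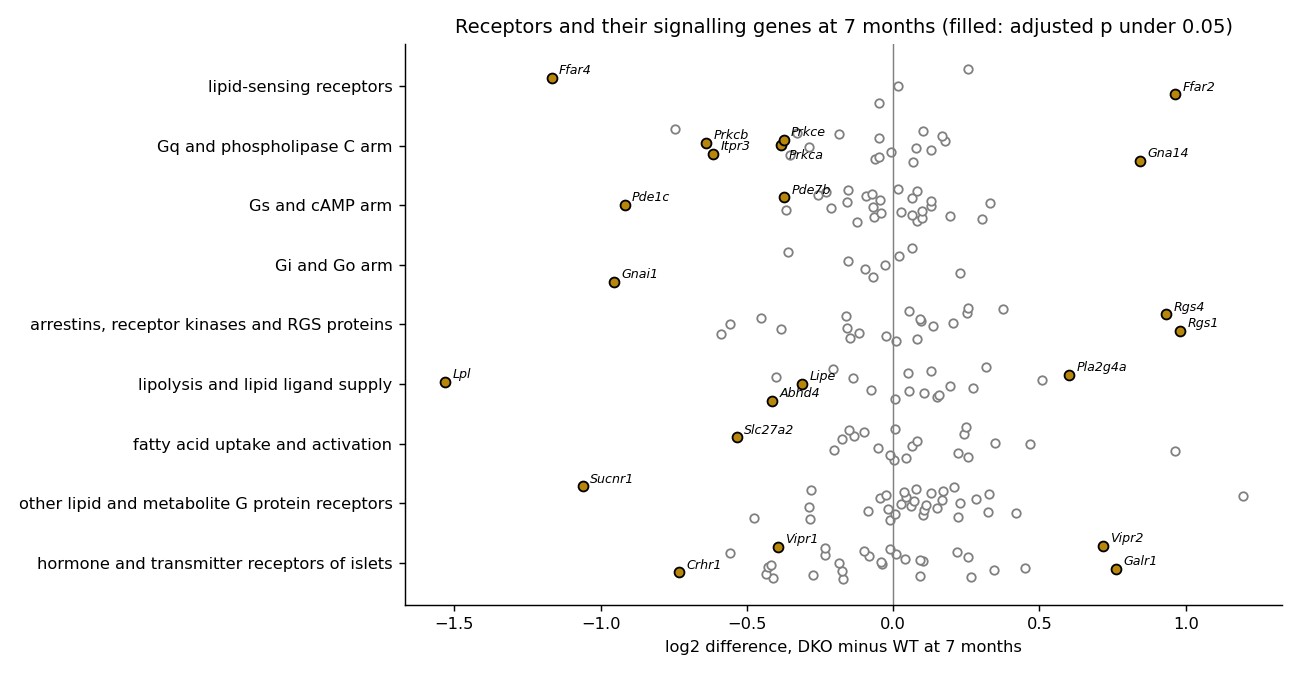
Log2 difference between DKO and WT islets at 7 months (x axis, DKO minus WT) for the 5 receptors and for every measured gene of the 8 signalling and ligand lists; each circle is 1 gene, filled and named where it passed the test, and its height within a row carries no meaning. Ffar2 lies at 0.96 and Ffar4 at -1.17, and Gnai1, Lpl and Sucnr1 are among the named genes left of 0.

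The genes whose level ran most like each receptor over the 14 arrays were ranked by Pearson's r as a description, and the arrays of a group share genotype and diet time. For Ffar4 these were Rbp4 (r = 0.97), Peg10 (0.95), Irx2 (0.95), Pdk4 (0.95) and Ndst4 (0.94). With group means removed, the r of these 5 genes with Ffar4 ran from -0.05 for Pdk4 to 0.28 for Peg10. For Ffar2 they were Cartpt (0.96), which encodes the CART neuropeptide precursor, Vgf (0.95), which encodes a secretory granule protein, Dhrs7 (0.95), Galr1 (0.94) and Tmem130 (0.93). With group means removed, r with Ffar2 was 0.85 for Cartpt, 0.83 for Vgf, 0.60 for Tmem130, 0.58 for Dhrs7 and 0.18 for Galr1.

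Ffar1 ran most like Hmgn3 (0.91), the receptor kinase Grk3 (0.90), Slc16a9 (0.89), Pcsk4 (0.88) and Sirpa (0.88), and with group means removed Hmgn3 and Grk3 had r of 0.92 and 0.94. Ffar3 ran most like Pea15b (0.85), Eml2 (0.84), Evc2 (0.84), Cfap70 (0.82) and Pigyl (0.81), of which Pea15b, Evc2 and Cfap70 had group means below the olfactory mark of 3.45 in all 4 groups. Gpr119 ran most like the ion channel gene Asic2 (0.93), Caln1 (0.89), Hspa12b (0.88), Msx2 (0.86) and Babam1 (0.86). Caln1 and Msx2 were likewise below that mark in all 4 groups, so likeness to these dim probe sets is uncertain. Among the receptors themselves, Ffar1 and Ffar3 had an r of 0.66, and Ffar2 and Ffar4 one of -0.87, which was 0.18 with group means removed.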

How the data were processed

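Islet total RNA, 100 ng per sample and 1 mouse per array, was hybridised to Affymetrix arrays. The authors deposited log2 expression values made with RMA, per the submitters' processing notes; the RMA version and genome build are not given in the sources used here. Of 35556 probe sets, 21218 had 1 gene symbol, 1881 several and 12457 none in the platform annotation. The brightest single-symbol probe set stood for each of 18820 genes. Group means were fitted on all 14 arrays with limma 3.58.1 (R 4.3.3), p-values adjusted by Benjamini-Hochberg over all genes, threshold 0.05. Errors of differences are SE and of means SD. Exact permutation tests used scipy 1.17.1 (Python 3.11.15). The fit was tested on simulated data. The limma p-values set each difference against the spread between arrays within the groups, and the number of arrays limits precision. The receptors and lists were chosen with earlier results of these data known. Named were all receptors, up to 4 genes per list and comparison by smallest p (others that passed at 7 months were added after their values were seen), the leading cell type markers and the 5 genes most like each receptor. Further names (the macrophage genes that passed, the rest of the delta and PP lists, neighbouring genes, Glp1r and Gipr) were chosen after their values were seen. Alternatives covered the prior, dim genes, probe sets, normalization, centring, blocks, acinar score, array weights and each array left out; without 1 early DKO array the lone one is assumed to vary like the other groups.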

Additional observations from a re-analysis of the deposited data

Results flagged for a closer look

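The genotype difference of Ffar4 at 7 months minus that at 5 weeks was -1.32 (log2; limma, adjusted p = 0.0197), which drew attention because the genotype effect differed between the diet times by a test of the difference itself. At 7 months Ffar4 was at 2.98 ± 0.11 in DKO islets and 4.15 ± 0.07 in WT islets (SD, n = 4 each), and at 5 weeks at 4.88 ± 0.39 in DKO islets (n = 2) and 4.73 ± 0.25 in WT islets (n = 4). Over the alternatives its adjusted p ran from 0.0135 to 0.0834. No receptor in any group of 4 arrays had a single array far outside the rest by Dixon's test.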

How the results depend on the processing

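The 2 receptors called at 7 months, Ffar2 and Ffar4, kept their direction and passed in every alternative, with differences from 0.86 to 1.06 for Ffar2 and from -1.22 to -1.10 for Ffar4. Numbers of receptors called moved elsewhere. With all probe sets tested, and with the replicate block, the count over time in WT islets was 0 and that of the interaction 0; with the trended robust prior it was 1 at 5 weeks and 2 for the interaction. Leaving out single arrays gave 0 to 1 over time in WT islets, 0 to 1 at 5 weeks and 0 to 2 for the interaction. Small differences that passed in no setting changed sign. Ffar1 at 7 months was 0.0012 with centred arrays and -0.20 to 0.069 without single arrays; Ffar2 at 5 weeks was 0.017 after repeated quantile normalization, 0.024 with the replicate block, 0.037 with the acinar score and -0.095 to 0.089 without single arrays; Ffar3 at 7 months was -0.052 with array weights and -0.079 to 0.10 without single arrays. Without single arrays Ffar1 ran from -0.0095 to 0.26 over time in DKO islets and from -0.090 to 0.18 for the interaction, Ffar3 from -0.027 to 0.15 over time in DKO islets, and Ffar4 at 5 weeks from -0.12 to 0.42. The cause was not tested. Arrays with the same replicate number correlated from -0.16 to 0.16 after group means were removed, so the numbers were not taken as pairs. Over all genes, counts of calls moved by over 1.5 times. At 5 weeks 187 became 120 with only the arrays compared, 121 with the replicate block, 101 with the acinar score, 282 with the trended robust prior and 44 to 236 without single arrays. At 7 months 887 became 488 with only the arrays compared and 528 to 1681 without single arrays. Over time in DKO islets 1424 became 347 with only the arrays compared, 864 with the replicate block, 917 with the acinar score and 378 to 2051 without single arrays; in WT islets 446 became 786 with array weights and 221 to 527 without single arrays. For the interaction 17 became 46 with the trended robust prior, 35 without dim genes, 28 with array weights, 10 with the replicate block and 2 to 185 without single arrays.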
